A study of Danio rerio with 7 samples.

Results

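The posterior cut edge (PCE) and the anterior cut edge (ACE) of the amputated zebrafish tail fin were compared at 72 h post amputation, with a control library as the reference. The comparison used 3 of the 7 RNA sequencing libraries of the study, namely the control and the latest library of each edge, all labelled as tail fin. The other 4 libraries came from the same edges at 24 and 48 h. The control carries neither an edge nor a time in its labels. Every group held 1 library, and the labels give no strain, age, genotype, drug treatment or number of pooled fish. The table lists 433380 features under cluster identifiers. None (0) of the identifiers was found in the zebrafish reference tables, so the results concern clusters and not named genes, and no marker of a fin cell type could be checked. Clusters were kept where they were above 0 in all 3 libraries and had a mean of the 3 of at least 5 FPKM (fragments scaled to feature length and to the size of the library). That left 18525 clusters, 4.27% of the table. Of these, 9312 differed between the edges by 1 or more on the log2(FPKM + 1) scale, which is a doubling or more for clusters well above 1 FPKM. With 1 library a side there is no replicate error and no p-value.

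After amputation the zebrafish fin closes the wound with epidermis, and cells beneath it lose their mature state and form a blastema, the proliferating tissue from which rays and connective tissue regrow. Regrowth depends on where along the fin the cut lies, and a blastema has a polarity along the proximal to distal axis. The title of the study ties this polarity to calcineurin, a calcium-dependent phosphatase known to restrain fin outgrowth. Comparing cut surfaces that face in opposite directions asks whether both edges enter the same programme, and whether either goes back towards the resting state.

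The 3 libraries differed in makeup. The 10 most abundant clusters held 40.01% of the total FPKM in PCE 72 h, 13.9% in ACE 72 h and 14.9% in the control. From the steps of low values, the depth of PCE 72 h was estimated at 0.667 of that of ACE 72 h. The values are rounded, so this ratio is coarse. At 1.2 to 2.5 FPKM, the steps coincided most clearly in 6 of the 21 pairs of libraries (peak heights of 8.26 to 15.1 SD, against 2.34 to 5.51 in the other 15). These pairs form 2 sets that the labels do not give. The control, the earliest ACE library and the latest PCE library made up one set, and PCE 48 h with both later ACE libraries made up the other. By the steps in this range the edges at 72 h lay in different sets, and what the sets stand for was not tested. PCE 24 h was in neither, and the kept clusters held only 53.6% of its total, against 80.0% to 83.6% in the other 6 libraries, so values at 24 h are given apart.

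On the deposited scale, 2350 clusters were higher and 6962 lower in PCE 72 h than in ACE 72 h by 1 or more. These were 12.7% and 37.6% of the clusters kept, together 50.3%. The median difference over all kept clusters was -0.62, with quartiles of -1.42 and 0.29. Median-of-ratios scaling divides each library by its median ratio to the geometric mean. Over the 3 libraries it raised PCE minus ACE by up to 0.47, and by less in clusters of low level. It gave 3595 higher (19.4%) and 4605 lower (24.9%), together 44.3%, with a median of -0.20. Scaling over all 7 libraries raised the difference by up to 0.70 and gave 4340 higher (23.4%) and 3654 lower (19.7%), together 43.2%. The share of differing clusters that was higher in PCE was thus 25.2%, 43.8% and 54.3% on the 3 scales, and which direction prevailed depended on the scaling.

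The deposited and the 3-library scaled values shared 6955 of them in the same direction, which was 74.7% of the former and 84.8% of the latter. All 2350 higher clusters were among these, and 4605 of the 6962 lower ones. The scaling dropped 2357 lower clusters and added 1245 higher ones. It moves all clusters towards PCE, by less where the level is low, so it could neither drop a higher cluster nor add a lower one. Among the deposited differences the median was 1.63 for the higher clusters and -1.65 for the lower ones. The difference reached 2 or more in 759 higher and 2158 lower clusters, and 4 or more in 39 and 106. Its extremes were 6.99 and -5.91. The threshold ran through a continuous distribution. Within 0.1 of it lay 241 clusters just inside and 264 just outside on the higher side, and 594 inside and 594 outside on the lower side.

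How far a filter on level shaped these counts can be seen from the other values. Of the higher clusters, 554 had both ACE 72 h and the control under 5 FPKM and so passed through PCE 72 h alone. Of the lower clusters, 624 had both PCE 72 h and the control under 5 FPKM and passed through ACE 72 h alone. In such clusters the filter itself favours a difference. All 3 libraries stood at 5 FPKM or more in 9525 kept clusters, of which 920 were higher and 2866 lower in PCE 72 h. The share of kept clusters that differed was 47.5% at a mean of 5 to 10 FPKM, 60.1% at 100 to 1000 FPKM and 46.6% (82 of 176) at 1000 FPKM or more. After the 3-library scaling these shares were 42.2%, 52.7% and 30.1% (53 of 176).

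Against the control, 23.4% of the kept clusters were higher and 35.0% lower by 1 or more in PCE 72 h, and 26.4% were higher and 15.6% lower in ACE 72 h. Both comparisons share the control library. The distance is the size of the difference in log2(FPKM + 1) from the control library. PCE 72 h lay farther from the control than ACE 72 h in 6576 of the 9312 differing clusters (70.6%), and ACE 72 h lay farther in 2736 (29.4%). Over all kept clusters these shares were 64.2% and 35.8%, and among the 9213 clusters under the threshold they were 57.6% and 42.3%. The share was 78.2% among clusters higher in PCE and 68.1% among those lower in it. After the 3-library scaling PCE was farther in 73.0% of the differing clusters, with 76.6% and 70.2% in the 2 directions, against 65.0% of all kept clusters. Of the 6955 clusters that differed on both scales, 99.4% had the same farther edge on both.

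The median distance of the differing clusters was 1.60 for PCE 72 h and 0.84 for ACE 72 h, against 0.91 and 0.80 among the clusters under the threshold. PCE 72 h was also the shallower library of the pair, and the part of depth in these shares was not tested. PCE 72 h shared its steps of low values with the control, and ACE 72 h did not (peak heights 13.6 and 5.51 SD), and the part of this in the distances was not tested.

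**Figure D1:**
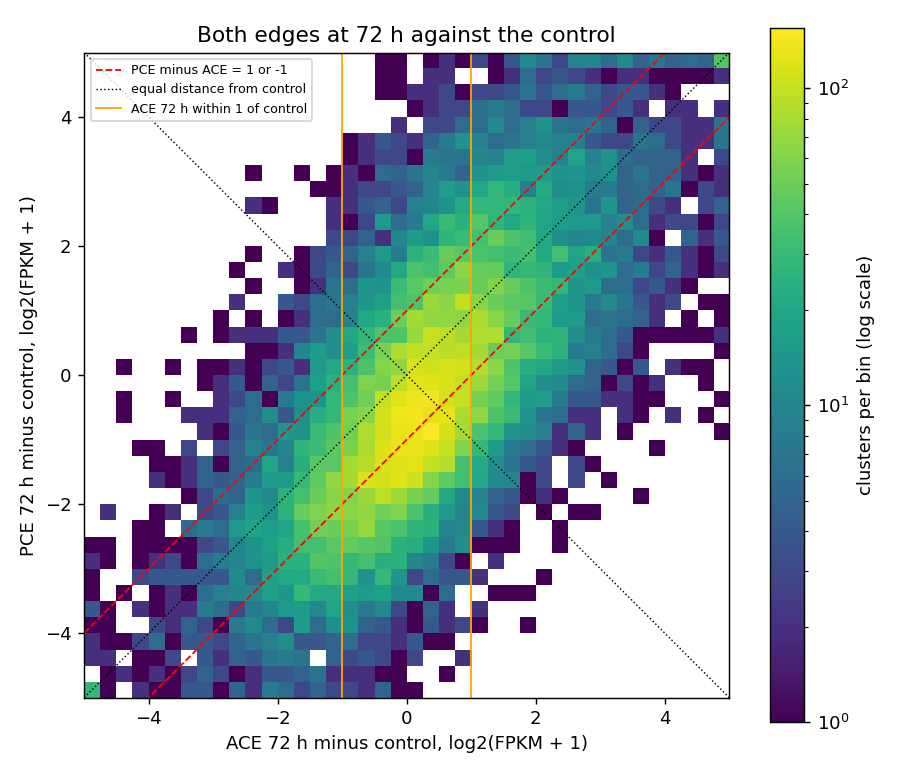
Difference from the control in ACE 72 h (horizontal) and PCE 72 h (vertical), log2(FPKM + 1), for the 18525 kept clusters in bins of 0.25, with colour for clusters per bin on a log scale. The red dashed lines mark a difference of 1 between the edges, the orange lines mark ACE 72 h at 1 from the control, and the 220 clusters beyond 5 are drawn in the outermost bins. The cloud is taller than it is wide, with PCE 72 h farther from the control in 64.2% of clusters.

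Whether ACE 72 h stood at the control level was counted as a distance under 1. It did in 5299 of the 9312 differing clusters (56.9%), and PCE 72 h did in 2753 (29.6%). Over all kept clusters ACE 72 h was within 1 of the control in 58.0% and PCE 72 h in 41.6%. The share for ACE among the differing clusters was therefore close to its background, and the share for PCE was below its own. After the 3-library scaling ACE was within 1 in 56.6% of the differing clusters and PCE in 27.5%, against 59.3% and 42.9% of all kept clusters. Clusters that differ between the edges can seldom have both edges near the control, so a low share for at least 1 edge is built into the rule.

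The differing clusters fell into 5 arrangements. In 4227 (45.4%) only ACE 72 h was within 1 of the control, 1014 of them higher and 3213 lower in PCE. In 1681 (18.1%) only PCE 72 h was within 1 of it, 306 higher and 1375 lower. Both edges were within 1, on opposite sides of the control, in 1072 clusters (186 higher, 886 lower). In 2025 both edges had moved by 1 or more to the same side, and PCE had gone farther in 1550 of them. In the remaining 307 both had moved by 1 or more in opposite directions, with PCE above and ACE below the control in 69, and the reverse in 238. After the 3-library scaling the counts in the same order were 3733, 1351, 906, 1982 and 228. Over all kept clusters, as deposited, only ACE 72 h was within 1 in 29.5% and only PCE 72 h in 13.1%. Both were within 1, on either side, in 28.5%, and both had moved to the same side in 27.3%.

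**Figure D2:**
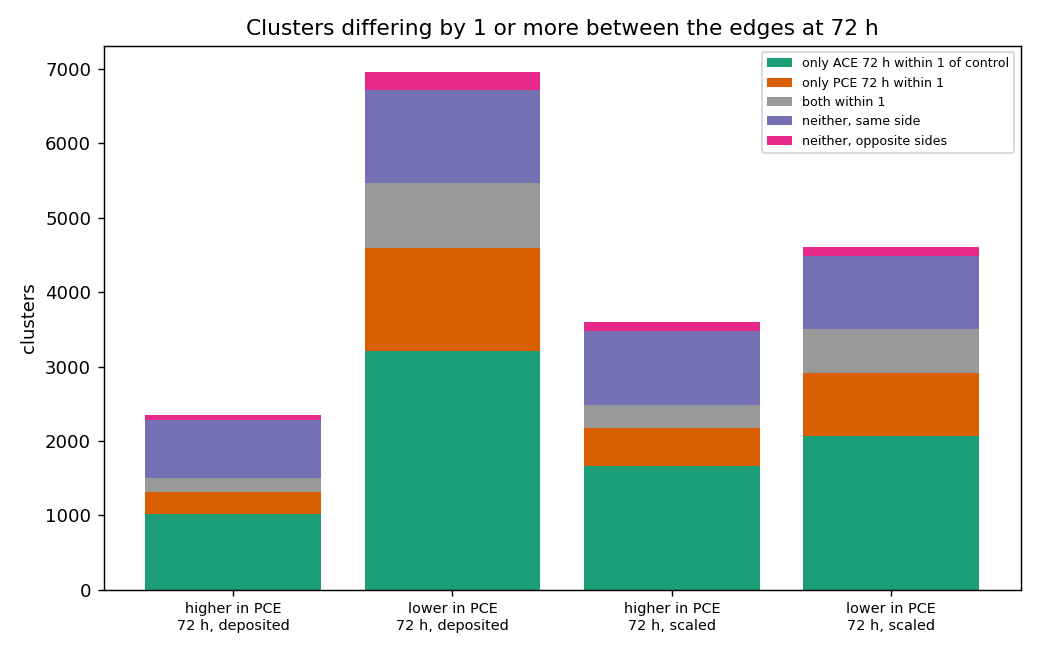
Number of clusters differing by 1 or more between the edges at 72 h (vertical axis), split by direction and by scale, deposited or median-of-ratios scaled over the 3 libraries. Colours give the position of both edges against the control. In each of these bars the largest block is the one with only ACE 72 h within 1 of the control, 1014 and 3213 clusters on the deposited scale and 1669 and 2064 after scaling.

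A level at the control does not by itself show a return, since a cluster may never have left it. ACE 24 h or ACE 48 h lay 1 or more from the control in 2735 of the 5299 differing clusters with ACE 72 h within 1 (51.6%), and neither did in 2564. Over all kept clusters with ACE 72 h within 1 it was 5097 of 10741 (47.5%), and among those under the threshold 2362 of 5442 (43.4%). For clusters higher in PCE the share that had left was 72.7% (872 of 1200), and for those lower in PCE it was 45.5% (1863 of 4099). With all 7 libraries scaled these shares were 57.1% and 49.2%, against 44.9% over all kept clusters with ACE 72 h within 1 and 38.9% under the threshold. The share for the clusters lower in PCE thus lay below that of all kept clusters as deposited and above it after scaling. These distances all share the 1 control library, so a control value off its true level would move them together. ACE values at 24 and 48 h could be 0, and such a value can count as a departure below the control. ACE was at 0 at 24 h in 142 and at 48 h in 105 of the 1014 clusters higher in PCE with only ACE 72 h within 1. For the 3213 lower in PCE these numbers were 94 and 55. How many of the departures below the control were values of 0 was not counted.

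The side to which ACE had departed went with the direction of the later edge difference. The control enters the departures and, through ACE 72 h, the choice of the clusters, so the choice can favour these sides. Where only ACE 72 h was within 1, the control had a median of 5.24 FPKM in the higher clusters and 16.2 FPKM in the lower ones. Clusters that passed the filter through 1 edge alone were not left out, and the part of the choice in these shares was not tested. Of the 1200 clusters higher in PCE 72 h with ACE 72 h within 1, ACE had been above the control only in 568 (47.3%) and below it only in 232 (19.3%). Of the 4099 clusters lower in PCE 72 h, ACE had been above it only in 377 (9.20%) and below it only in 1465 (35.7%). Among the 5442 clusters under the threshold with ACE 72 h within 1, the numbers were 1182 (21.7%) and 1133 (20.8%). PCE 72 h stood 1 or more above the control in 530 of the 568 and in 170 of the 232, and 1 or more below it in 1378 of the 1465 and in 166 of the 377. The choice of the clusters largely fixes this side of PCE 72 h, whichever way ACE had gone. With all 7 libraries scaled, the shares above and below the control were 37.0% and 17.5% for clusters higher in PCE, and 6.23% and 42.5% for those lower in it. Over all kept clusters with ACE 72 h within 1 they were 18.0% and 25.8% on that scale, and 19.8% and 26.3% as deposited.

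The courses of the classes were followed over time, on deposited values. Values of an edge are given from here on in order of time, for 24, 48 and 72 h. In the 1014 clusters higher in PCE with only ACE 72 h within 1, ACE had median differences from the control of 0.71, 0.91 and 0.25, and PCE had 0.96, 1.17 and 1.99. The medians of both edges were above the control at 24 and 48 h. Over all kept clusters the medians at these times were 0.08 and 0.20 in ACE and -0.39 and -0.04 in PCE. The ACE level near the control and the PCE level above it at 72 h are set by the class. With all 7 libraries scaled, the medians of this class at 24 and 48 h were 0.52 and 0.60 in ACE and 0.99 and 1.06 in PCE. In the 3213 clusters lower in PCE with only ACE 72 h within 1, the medians were -0.54, -0.43 and -0.06 in ACE and -1.08, -0.89 and -1.79 in PCE. In the 1375 clusters lower in PCE with only PCE 72 h within 1, ACE stood at 0.91, 1.27 and 1.68, and PCE at -0.08, 1.02 and -0.02. Here the PCE median, like that of ACE, was above the control at 48 h. Its deposited level at the control at 72 h is set by the class. In the 306 clusters higher in PCE with only PCE 72 h within 1, ACE stood at -1.18, -1.38 and -1.60, and PCE at -0.97, -1.28 and -0.03. With all 7 libraries scaled, the ACE medians of these classes at 72 h were -0.01, -0.36, 1.38 and -1.88, in the order above. The PCE medians at 72 h were 2.36, -1.48, 0.32 and 0.34. On that scale 19.6% of the 3213 clusters had PCE 72 h within 1 of the control. The values at 72 h chose these classes and describe them, while those at 24 and 48 h were not used by the choice except through the control. Values at 24 and 48 h could be 0, and PCE 24 h was at 0 in 240, 389, 178 and 108 clusters of these classes in the order above.

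**Figure D3:**
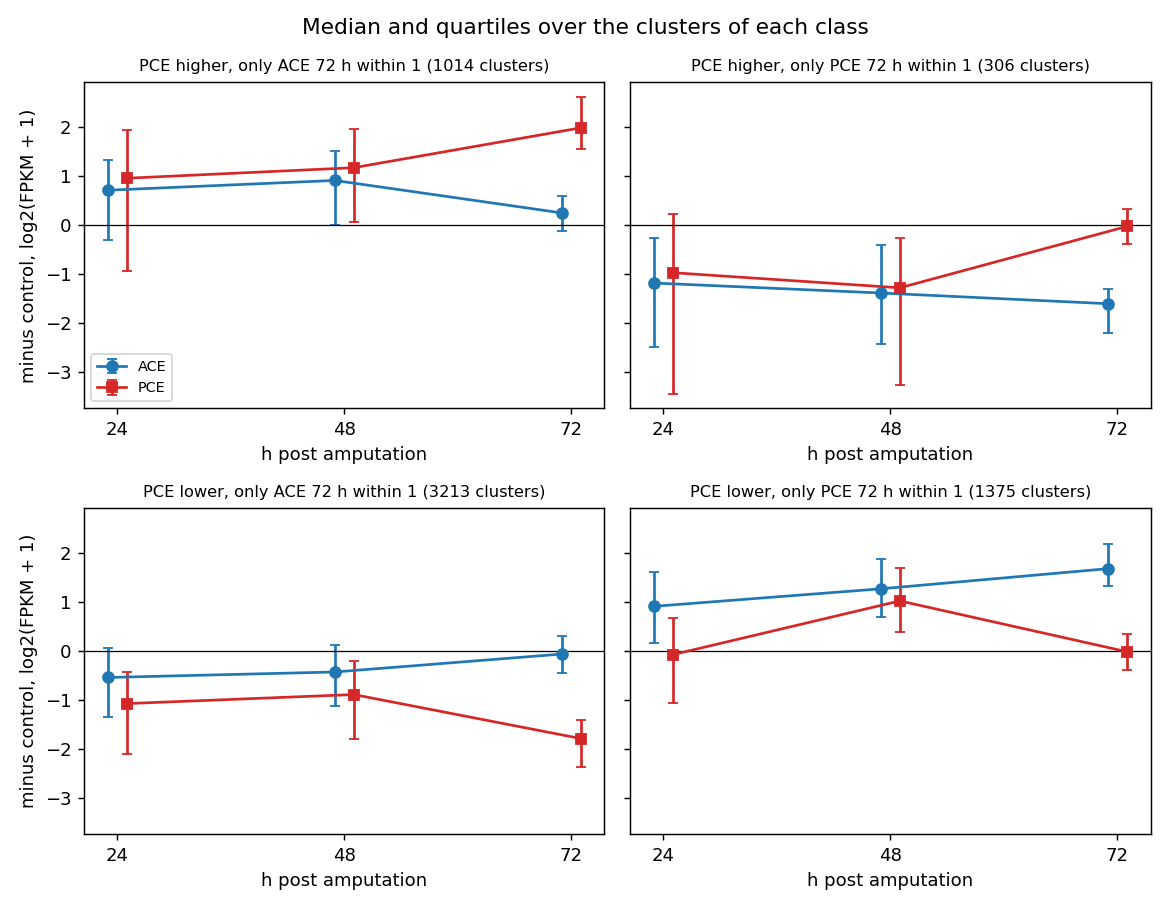
Median (points) and quartiles (bars) over clusters of the difference from the control in log2(FPKM + 1), deposited values, against h post amputation, for ACE (blue circles) and PCE (red squares). Each panel is a class of clusters differing at 72 h. In the first panel the medians were 0.91 in ACE and 1.17 in PCE at 48 h, and 0.25 and 1.99 at 72 h, where the gap is fixed by the choice of the classes.

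The edges at 48 h were sequenced from other libraries and so give the same measure without the values that chose the clusters. Of the 2350 clusters with PCE 72 h above ACE 72 h, 500 (21.3%) were higher in PCE by 1 or more at 48 h as well and 335 (14.3%) lower. Over all kept clusters 7.10% were higher and 16.5% lower at 48 h. Of the 6962 clusters lower in PCE at 72 h, 1476 (21.2%) were lower by 1 or more at 48 h and 268 (3.85%) higher. The difference at 48 h had a median of 0.20 in the former, -0.35 in the latter and -0.17 over all kept clusters. The difference was under 1 at 48 h in 64.5% of the higher and 74.9% of the lower clusters, against 76.4% of all kept clusters. The filter allowed values of 0 at 48 h. PCE 48 h was at 0 in 351 higher and 426 lower clusters, and ACE 48 h in 221 and 129. Among clusters above 0 in all 7 libraries, 20.7% of 1586 higher and 17.5% of 5724 lower ones repeated their direction at 48 h. The background shares over all kept clusters above 0 in all 7 libraries were not counted, so these shares are a description only.

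With all 7 libraries scaled, the higher clusters at 72 h were higher at 48 h in 19.9% and lower in 11.5%, against 9.38% and 13.0% of all kept clusters. The lower clusters were lower in 19.8% and higher in 5.50%. The share in the same direction by any amount was 62.5% and 62.6%, against 49.4% above and 48.5% below 0 over all kept clusters. On the deposited scale, of the 39 clusters higher by 4 or more at 72 h, 26 were higher by 1 or more at 48 h and 2 lower. Of the 106 lower by 4 or more, 41 were lower by 1 or more at 48 h and 5 higher. With all 7 libraries scaled, 109 clusters were higher by 4 or more, with 66 higher and 7 lower at 48 h, and 43 were lower by 4 or more, with 13 lower and 0 higher at 48 h. Deposited values of clusters with PCE farther from the control repeated their direction at 48 h in 22.0% (higher) and 23.5% (lower). Where ACE was farther, 18.5% of the higher clusters repeated it and 22.8% went the opposite way. Of the lower clusters with ACE farther 16.3% repeated it, which is close to the 16.5% of all kept clusters.

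At 24 h the edge difference was wider over all kept clusters, with 12.5% higher and 29.5% lower in PCE by 1 or more, and it includes the PCE 24 h library that stood apart. Of the higher clusters at 72 h, 27.1% were higher and 22.3% lower at 24 h. Of the lower clusters, 36.3% were lower and 7.90% higher. PCE 24 h was at 0 in 553 of the higher and 914 of the lower clusters, and ACE 24 h in 316 and 247. A difference of 1 or more in the same direction at all 3 times was seen in 167 higher and 551 lower clusters, which is 7.11% and 7.91% of them. In 1380 of the higher (58.7%) and 3511 of the lower (50.4%) neither 24 nor 48 h showed a difference of 1 or more in that direction. Shares over all kept clusters were not counted for these combinations of times, so they are a description only.

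**Figure D4:**
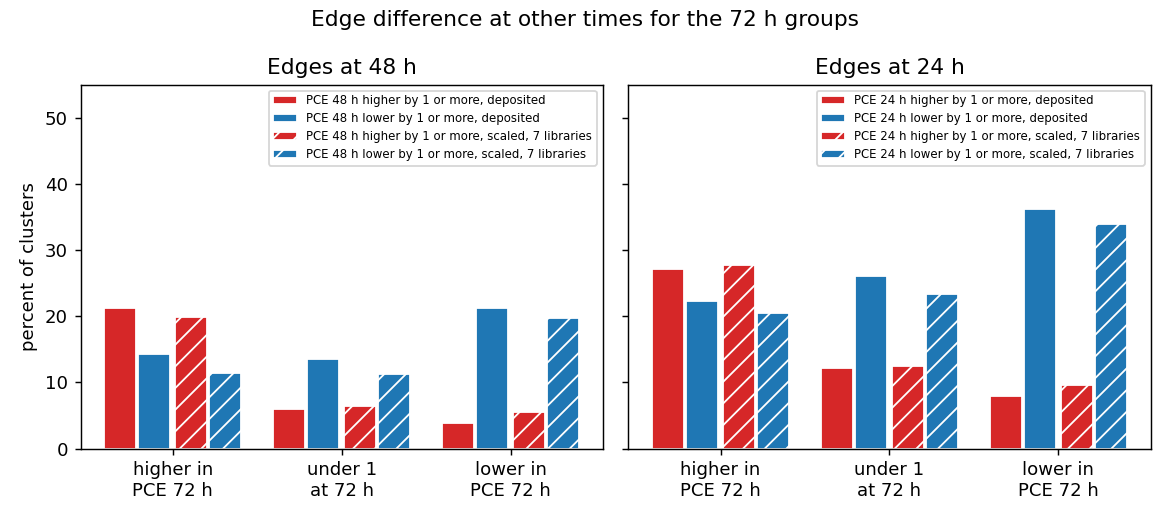
Percent of clusters (vertical axis) with PCE higher (red) or lower (blue) than ACE by 1 or more at 48 h (left) and 24 h (right), for clusters higher, under the threshold or lower at 72 h. Plain bars are deposited values and hatched bars are scaled over 7 libraries. On the left, red bars are tallest for clusters higher at 72 h (21.3% deposited), and blue bars for those lower at 72 h (21.2%).

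For the clusters under 1 at 48 h, the change of each edge to 72 h was counted, as a description. The values at 72 h chose the clusters. They favour a fall of PCE and a rise of ACE in the lower ones, and the reverse in the higher ones. Of the 5218 such clusters lower in PCE at 72 h, PCE alone changed by 1 or more between 48 and 72 h in 2595 (49.7%), ACE alone in 672 (12.9%), both in 519 and neither in 1432. Over all kept clusters PCE alone changed in 28.4% and ACE alone in 12.8%, so the share of ACE was close to its background. In these lower clusters PCE fell by 1 or more in 2949, and ACE rose by as much in 1091. Over all kept clusters these numbers were 4571 and 3055. Of the 1515 higher in PCE, PCE alone changed in 339 (22.4%), ACE alone in 439 (29.0%), both in 284 and neither in 453. PCE rose by 1 or more in 604 of these and ACE fell by as much in 523. With all 7 libraries scaled, PCE alone changed in 32.1% of the higher and 42.2% of the lower clusters, and ACE alone in 17.8% and 17.4%. Over all kept clusters, on the same scale, PCE alone changed in 24.8% and ACE alone in 11.8%. For clusters higher in PCE the edge that more often changed alone, in either direction, was ACE as deposited and PCE after scaling. Towards the gap at 72 h, PCE rose more often than ACE fell as deposited, and also after scaling (1431 against 703). The same order was seen over all kept clusters, with 3140 against 1753 as deposited and 4552 against 1632 after scaling. It was therefore not particular to the clusters higher in PCE.

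The gap between the edges at 72 h can be set beside those of the other libraries. Among 15363 clusters above 0 in all 7 libraries with a mean of the 7 of at least 5 FPKM, PCE 72 h and ACE 72 h differed by 1 or more in 48.0%. This was rank 18 of the 21 pairs from the smallest, with 3 pairs above it, those of the control with ACE 48 h (49.1%), with PCE 48 h (52.4%) and with PCE 72 h (54.7%). The edges differed in 17.7% of clusters at 48 h and in 36.4% at 24 h. ACE 72 h differed from ACE 48 h in 20.6% and from the control in 39.6%, while PCE 72 h differed from PCE 48 h in 37.5%. After scaling over 7 libraries the pair at 72 h had 40.4% and rank 14. ACE 72 h remained the library nearest to the control (37.2%) and PCE 72 h the farthest from it (53.9%). Both pairs with the fewest differing clusters, the edges at 48 h and the later ACE libraries, lay within the same set of libraries by their low values. The pair with the most, the control and PCE 72 h, also lay within 1 set, as did the control with ACE 24 h (45.6%) and ACE 24 h with PCE 72 h (45.7%), at ranks 15 and 16. The part of the sets in these counts was not tested.

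The most abundant clusters carried much of the edge difference in total FPKM. Clusters higher in PCE 72 h held 46.1% of its total, against 7.41% of the ACE 72 h total and 7.55% of that of the control. Clusters lower in PCE 72 h held 7.40% of its total, 30.2% of that of ACE 72 h and 29.6% of that of the control. The choice of the clusters by direction favours both of these contrasts. Of the 176 kept clusters with a mean of the 3 of at least 1000 FPKM, 25 were higher and 57 lower in PCE 72 h. After the 3-library scaling 33 were higher and 20 lower. Among the 10 most abundant clusters of PCE 72 h, 6 were higher than in ACE 72 h by 1 or more and 0 lower, which choosing by level in PCE 72 h favours. These 6 held 34.6% of the total in PCE 72 h, 4.03% in ACE 72 h and 3.64% in the control. Their difference ran from 2.70 to 4.33, and ACE 72 h was within 1 of the control in all 6. At 48 h the 6 held 13.7% of the total in PCE and 5.41% in ACE, and at 24 h 8.12% and 7.48%.

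The highest of them was Cluster-118330.128325, which stood at 11561 FPKM in the control. ACE held 32500, 44130 and 13912 FPKM of it over time, while PCE held 17957, 259640 and 280779 FPKM. PCE was far above every other library from 48 h on, where the edge difference was 2.56, and at 72 h ACE was back near the control. In PCE 72 h this cluster held 12.99% of the total. The other 5 differed by less than 1 between the edges at 48 h, with PCE higher in each. With the total FPKM of the libraries made equal, 1746 clusters were higher and 8708 lower in PCE 72 h. With totals taken without the 10 most abundant clusters of each library, 2914 clusters were higher and 5990 lower in PCE. All 10 most abundant clusters of PCE 72 h carried second numbers from 128094 to 128816 in their identifiers, and so did 6 to 8 of the 10 most abundant in each other library. That window held 284 kept clusters, of which 36 were higher and 118 lower in PCE 72 h (12.7% and 41.5%), against 12.7% and 37.6% of all kept clusters.

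The member with the highest level in ACE 72 h was Cluster-118330.129056. The control had 42912 FPKM of it, ACE had 42718, 23289 and 33043 FPKM, and PCE had 20584, 23033 and 7251 FPKM. The edges were level at 48 h, with a difference of -0.02, and at 72 h PCE was the lower, with a difference of -2.19 on the log2 scale (-1.71 after the 3-library scaling). ACE 72 h lay -0.38 from the control, so it was counted at the control level.

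Identifiers were further named by class, 1 for each direction and farther edge, as the cluster with the largest difference on both scales among those above 0 in all 7 libraries with a mean of at least 50 FPKM. Their differences were used to choose them and are a description. Cluster-118330.139969 was higher in PCE with PCE farther from the control. Its level was 9.74 FPKM in the control. ACE had 62.9, 54.1 and 35.9 FPKM, and PCE had 371, 998 and 2986 FPKM. PCE was above ACE at each time, and the values went apart in time, up in PCE and down in ACE. The difference at 72 h was 6.34 (6.81 scaled). ACE 72 h was still 1.78 above the control and had not returned to it.

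Cluster-118330.181994 was lower in PCE with PCE farther from the control. From 45.5 FPKM in the control, it went to 29.1, 97.7 and 184 FPKM in ACE and to 16.2, 65.4 and 2.07 FPKM in PCE. The edges lay on opposite sides of the control at 72 h, 1.99 above it in ACE and -3.92 in PCE. The difference between the edges was -5.91 at 72 h, while it was -0.57 at 48 h.

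Cluster-118330.129065 was higher in PCE with ACE farther from the control. The control had 4474 FPKM, ACE only 5.32, 3.39 and 21.6 FPKM, and PCE 39.4, 19.7 and 376 FPKM. Every cut library was far below the control, and PCE was above ACE at each time by 2.67, 2.23 and 4.06 on the log2 scale. At 72 h PCE was still -3.57 from the control and ACE -7.63.

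Cluster-118330.249636 was lower in PCE with ACE farther from the control. The control had 0.79 FPKM. ACE went through 1.42, 211 and 619 FPKM, and PCE through 1.36, 112 and 25.7 FPKM. Both edges were near the control at 24 h and far above it at 48 h. At 72 h ACE was 8.44 above the control and PCE 3.90 above it.

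**Figure D5:**
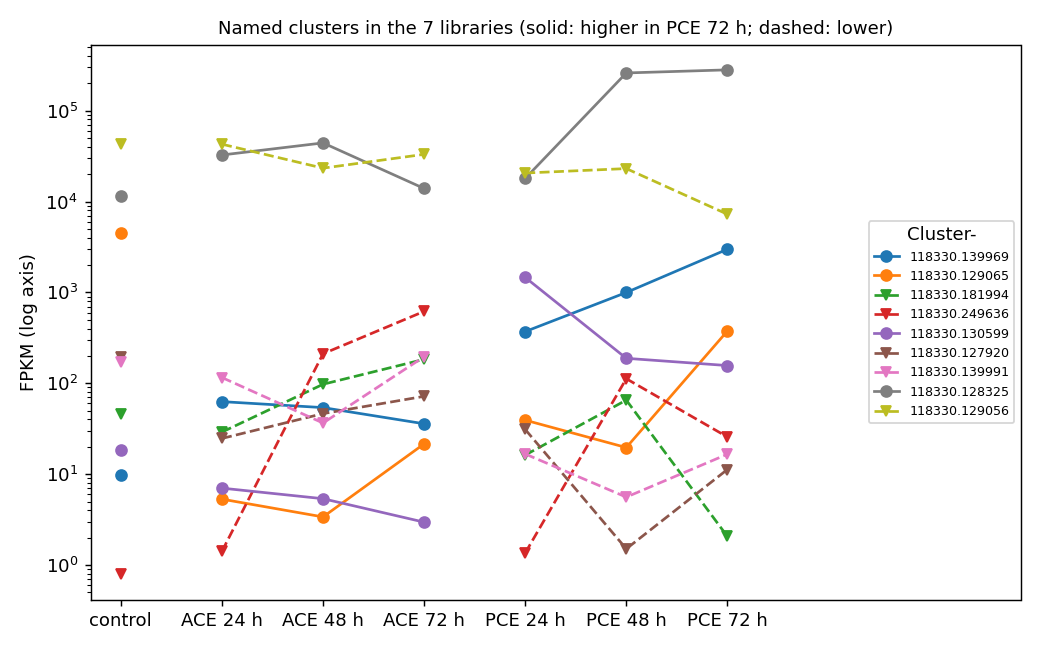
FPKM of the 9 named clusters in the 7 libraries on a log axis, with 1 library per point and lines joining the times of an edge. Solid lines with circles are clusters higher in PCE 72 h than in ACE 72 h and dashed lines with triangles are clusters lower in it, and Cluster-118330.128325 reaches 280779 FPKM in PCE 72 h.

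A further set was named for the largest difference in the same direction at both 48 and 72 h, so that agreement of these times is a condition of the naming. Cluster-118330.130599, higher in PCE, had 18.4 FPKM in the control, while ACE had 7.03, 5.38 and 2.97 FPKM and PCE had 1463, 188 and 157 FPKM. Cluster-118330.139969, described above, was the other. Both had every PCE value above every ACE value. Cluster-118330.127920, lower in PCE, had 197 FPKM in the control, while ACE had 24.8, 46.4 and 71.9 FPKM and PCE had 31.1, 1.51 and 11.3 FPKM. Its PCE value at 24 h lay within the range of the ACE values. Cluster-118330.139991 had 173 FPKM in the control, while ACE had 116, 36.6 and 196 FPKM and PCE had 16.7, 5.60 and 16.6 FPKM, with every PCE value below every ACE value. ACE 72 h was 0.18 from the control in this cluster after a low value at 48 h, and PCE 72 h was -3.30 from it.

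Identifiers hold a first and a second number. The first number 118330 was carried by 98.4% of the kept and 98.2% of the differing clusters, so it did not set them apart. Among differing clusters with this number, 904 pairs had second numbers 1 apart, and 724 of these pairs (80.1%) differed between the edges in the same direction. In pairs of successive members over 50 apart this share was 59.7%, and over all pairs of members 63.0%. After the 3-library scaling the shares were 70.2%, 49.96% and 50.9%. Neighbouring identifiers thus shared their direction more often than distant ones. The sources used here do not give the meaning of the numbers. Clusters of near-identical sequence could share or split reads, which was not tested. The members therefore cannot be taken as independent of each other.

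The requirement to be above 0 in all 3 libraries left out clusters listed at 0 in 1 edge. With the same minimum mean, 3674 clusters were above 0 in the control and ACE 72 h and listed at 0 in PCE 72 h, and 318 were above 0 in the control and PCE 72 h and listed at 0 in ACE 72 h. The former had a median of 14.9 FPKM in the control, and of 9.71 FPKM at the anterior edge at 72 h. Of these, 2531 were also above 0 in ACE 48 h and 1676 in PCE 48 h. A further 3073 clusters, with the same minimum mean, were above 0 in PCE 72 h only among the 3 libraries, against 639 in ACE 72 h only. Without the minimum mean this order was reversed, with 21859 in PCE 72 h only and 46655 in ACE 72 h only. PCE 72 h listed 96680 clusters above 0 in all and ACE 72 h 181371. PCE 72 h had the lower depth, and the part of depth in these counts was not tested.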

How the data were processed

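RNA sequencing of 7 tail fin libraries was available as 1 table with 7 columns. The deposited values are FPKM that the authors computed for each cluster. The submitters' processing notes list HISAT2 2.0.5, HTSeq 0.9.1 and edgeR without saying what each did. How the clusters were built, and on which genome, was not given in the sources used here. Read totals are not in the table, so the precision of single values is unknown. Per the labels' protocols, total RNA was taken with Trizol and sequenced on Illumina libraries of a NEBNext Ultra kit.

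Columns were matched to libraries by title. Values were put on the log2(FPKM + 1) scale, where differences of low clusters come out too small, for clusters above 0 in the 3 libraries with a mean of at least 5 FPKM. Median-of-ratios factors came from clusters above 0 in all 3, or in all 7, libraries. Under the 3-library scaling, values at 24 and 48 h stayed as deposited. Relative depth and shared steps came from histograms of log2 value ratios (bins of 0.04, peak height over an average of 11 bins) at 0.15 to 0.3 and 1.2 to 2.5 FPKM. Named clusters were the largest differences by class, by agreement of 48 and 72 h, and by level in each edge. The rule, classes and settings were chosen with earlier results of these data known. The factors and class calls were tested on simulated data with 200 changed clusters. These were a small part of the clusters and went up and down in equal numbers. The simulation therefore could not show how the factors behave where as many clusters differ as did here. Python 3.11.15, numpy 2.4.6, pandas 2.3.3 and matplotlib 3.10.9 were used.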

Additional observations from a re-analysis of the deposited data

How the results depend on the processing

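No paired analysis was possible because each group held 1 library and the labels give no replicate numbers, and for the same reason no library could be left out. The number of clusters higher in PCE 72 h, 2350 as deposited, was 3595 with median-of-ratios scaling over 3 libraries, 4340 over 7, 3902 with quantile normalization and 3707 with each library centred on its median, a setting chosen after seeing the data. The number lower, 6962 as deposited, was 4605, 3654, 4073 and 4372 in the same order. The share higher, 25.2% as deposited, was 43.8%, 54.3%, 48.9% and 45.9%, so its side of 50% reversed under the 7-library scaling alone. With equal total FPKM it was 16.7%, and 32.7% when totals left out the 10 most abundant clusters.

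The filters on level changed the number of clusters that entered, while the size thresholds and totals did not. A minimum mean of 1 FPKM gave 5067 higher, 12064 lower, 11860 with PCE farther from the control, 10697 with ACE within 1 of it and 3586 repeated at 48 h. A minimum of 20 FPKM gave 821, 2252, 2155, 1669 and 577 in that order. With no need to be above 0 they were 6495, 11391, 14023, 10121 and 4178, and with a size of 2 they were 759, 2158, 2145, 1513 and 303. With a size of 1.5-fold 3544 were higher and 4297 repeated at 48 h, and with equal total FPKM 3038 repeated, against 1976 as deposited. The changed size was applied at 48 h as well, so 303 and 4297 were counted at other thresholds at 48 h than 1976. With the threshold at 48 h kept at 1, 265 of the 759 clusters higher by 2 or more (34.9%) repeated. Of the 2158 lower by 2 or more, 632 did (29.3%). The share higher was 29.6% with a minimum of 1 FPKM, 26.7% with 20 FPKM, 36.3% with no need to be above 0, 21.7% above 0 in all 7 libraries and 27.2% at 1.5-fold.

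The share of differing clusters with PCE farther from the control, 70.6%, stayed above 50% under all 13 alternatives. The background was itself above 50%, at 64.2% of all kept clusters as deposited and 65.0% after the 3-library scaling. It was not counted for the other alternatives, so their shares are a description only. Among the differing clusters the share was 73.0%, 73.3%, 67.7% and 72.0% under the scalings in the order above. It was 69.2% with a minimum of 1 FPKM, 78.4% with no need to be above 0, 68.0% at 1.5-fold and 73.5% at a size of 2. The 9 named clusters kept their direction and a difference of 1 or more under all 13, which choosing the largest differences largely fixes. Changing only a filter or the size threshold leaves the value of a cluster as deposited, so those outcomes were fixed in advance. The sizes of these differences moved with the scaling, for Cluster-118330.128325 from 4.33 to 2.92 with quantile normalization, and for Cluster-118330.129056 from -2.19 to -1.48 over 7 libraries. Counting ACE 72 h as at the control level only within 1.5-fold, also chosen after seeing the data, gave 3427 clusters in place of 5299. Apart from the scalings and filters, the cause of these shifts was not tested. Depth was lower in PCE 72 h, and its part in these shifts was not tested. As deposited, the median difference was -0.60 at a mean of 5 to 10 FPKM and -0.81 at 1000 FPKM or more. After the 3-library scaling these medians were -0.20 and -0.34.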
